A study of Homo sapiens with 6 samples.

Results

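The fatty acid desaturases and elongases are the enzymes that place double bonds in fatty acyl chains and lengthen them. They were taken by gene symbol as 10 genes of the 60675 in the count table: the desaturases FADS1, FADS2, FADS3, SCD and SCD5, and the elongases ELOVL1, ELOVL2, ELOVL5, ELOVL6 and ELOVL7. The rule is a list of symbols, written with earlier results of these data known, and all 10 passed the low-count filter that 18267 genes passed. They were measured by total RNA sequencing in HEK293, an established line of human embryonic kidney origin. The series holds 3 control libraries, whose genotype is given as wild type, and 3 libraries labelled MOCS2 knockdown by RNAi. Cells of both groups grew in high-glucose DMEM with fetal bovine serum and Geneticin, an aminoglycoside used to select transfected cells. MOCS2 is the gene of molybdopterin synthase, which works in the making of the molybdenum cofactor. The labels do not give the RNAi sequence, the number of clones or whether replicates were separate cultures, so p-values measure the spread between these libraries, which may be technical.

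In background, palmitate made by fatty acid synthase is lengthened in the endoplasmic reticulum by an elongase, which carries out the first, condensing step of a cycle that other enzymes complete. SCD and SCD5 place a double bond in saturated chains to make palmitoleic and oleic acid. FADS2 and FADS1 act in turn, with ELOVL5 and ELOVL2 between and after them, to turn linoleic and alpha-linolenic acid into arachidonic, eicosapentaenoic and docosahexaenoic acid. Several of these genes, SCD, FADS1, FADS2 and ELOVL6 among them, are known targets of the sterol regulatory element-binding proteins and of the liver X receptors.

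The targeted gene went against its label: MOCS2 stood at 57.8, 66.6 and 65.6 CPM in controls 1 to 3 and 69.8, 58.9 and 59.9 CPM in knockdown 1 to 3, and its log2 fold change was -0.01 with an SE of 0.14 (adjusted p = 0.976 by edgeR). Its groups overlapped and the sign turned positive under some alternatives, so every direction below compares libraries by their labels alone. The libraries labelled knockdown are called knockdown 1 to 3 here. Reads in genes ranged from 17958632 to 22171106 per library. Reads outside genes made up 37.5% of uniquely aligned reads in knockdown 2 and 21.5% to 24.95% in the other 5 libraries. The libraries labelled knockdown also spread more widely, with a median SD of log2 CPM over genes of 0.311 against 0.161 in the controls. CPM are read counts relative to library size after scaling by TMM factors. Genes of HEK293 cells were present, such as the filament genes VIM (805 ± 123 and 1277 ± 255 CPM, means ± SD over 3 libraries in controls and in the libraries labelled knockdown) and NEFL (160.4 ± 6.01 and 125 ± 8.80 CPM). PAX2, a kidney developmental gene, was low at 1.44 ± 0.209 and 1.25 ± 0.309 CPM. Of 8 fibroblast markers 5 passed the filter, with a summed level of 20.9 to 34.7 CPM in the controls and 11.3 to 19.3 CPM in the libraries labelled knockdown, and 0 of the 8 had no read in any library. LUM (11.9 ± 4.71 and 1.90 ± 0.685 CPM) and PDGFRA (3.51 ± 1.72 and 0.891 ± 0.528 CPM) were the fibroblast markers with lower values in all 3 libraries labelled knockdown. Their part in the results below was not tested. The 8 HEK293 genes summed to 1541 to 1972 CPM in the controls and 1941 to 2681 CPM in the libraries labelled knockdown. The summed level of 7 blood cell markers, 0 of them with no read in any library, was 3.23 to 5.75 CPM in the controls and 4.06 to 6.06 CPM in the libraries labelled knockdown, and that of 8 hepatocyte and adipocyte markers, 0 with no read, 2.52 to 2.72 CPM in the controls and 1.92 to 2.71 CPM in the libraries labelled knockdown.

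All 10 genes had a lower fitted level in the libraries labelled knockdown, led by FADS2 at 2.51-fold lower, ELOVL6 at 1.69-fold lower and SCD at 1.54-fold lower, while ELOVL5 was nearly level. None passed edgeR's quasi-likelihood test at an adjusted p of 0.05, where 0% of all tested genes were called. DESeq2 called FADS2 (adjusted p = 0.0012) and ELOVL6 (adjusted p = 0.0215) lower and 0 higher, against 3.55% of genes called lower and 3.39% called higher by that tool, and limma voom called 0 of the 10 and 0% of all genes. At an unadjusted edgeR p under 0.05, 6 of the 10 were lower and 0 higher, against 10.6% of all genes lower and 9.93% higher. In 6 of the 10 every library labelled knockdown lay below every control, as in 14.3% of all genes, and in 0 of the 10 every one lay above, as in 12.5% of all genes. The median log2 fold change was -0.40 over the 10 genes and 0.02 over all tested genes. Of all genes 48.2% had a negative value. Outside the list, 3 other elongases and desaturases were tested, 1 with a negative value and 2 with a positive one. Their log2 fold changes were -0.01 for ELOVL4, 0.62 for DEGS1 and 0.66 for DEGS2. In bulk RNA, fewer cells with a transcript and less of it per cell cannot be told apart.

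**Figure D1:**
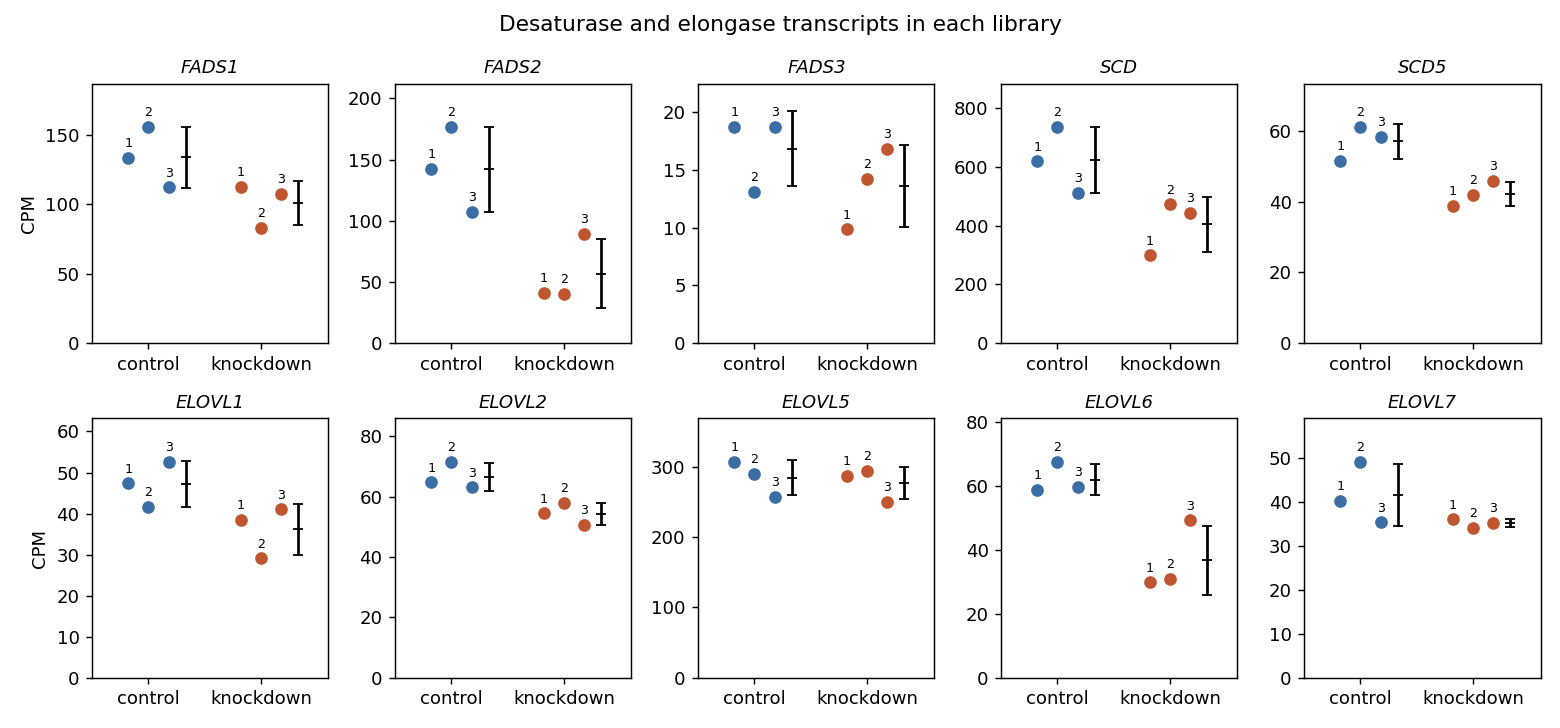
Level of each desaturase and elongase in CPM (vertical axis, from 0) in the 3 control libraries and the 3 libraries labelled knockdown; numbers are replicate numbers, and bars are the mean ± SD over 3 libraries. The libraries labelled knockdown lie below all controls for FADS2, SCD, SCD5, ELOVL1, ELOVL2 and ELOVL6, and the groups overlap for FADS1, FADS3, ELOVL5 and ELOVL7.

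Among the front-end desaturases, which act between an existing double bond and the carboxyl end, FADS2 differed most. FADS2 (ENSG00000134824, chromosome 11, 61792980 to 61867354, plus strand) on GRCh38 encodes the desaturase of the first step of polyunsaturated fatty acid synthesis. It stood at 143, 177 and 107 CPM in controls 1 to 3 and 40.9, 39.8 and 89.2 CPM in knockdown 1 to 3. Knockdown 1 and 2 were the low libraries and knockdown 3 lay nearest to control 3, the lowest control, with no overlap. The log2 fold change -1.33 had an SE of 0.31 and an edgeR adjusted p of 0.0895, and the 95% interval ran from -2.005 to -0.65. Knockdown 3 weighs on this value: without it the log2 fold change was -1.82 with an edgeR adjusted p of 0.00104, while 8.3% of all genes were then called lower. Leaving out a control moved the adjusted p the other way. The log2 fold change was -1.14 without control 2 (edgeR adjusted p = 0.408) and -1.33 without control 1 (edgeR adjusted p = 0.210).

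FADS1 (ENSG00000149485, chromosome 11, 61799625 to 61829318, minus strand) encodes the later desaturase of that pathway, which makes arachidonic and eicosapentaenoic acid. It stood at 134, 156 and 112 CPM in controls 1 to 3 and 113, 82.8 and 107 CPM in knockdown 1 to 3. Knockdown 1 lay level with control 3, so the groups overlapped, and the log2 fold change was -0.41 with an SE of 0.18 (adjusted p = 0.227 by edgeR). Exons of FADS1 and FADS2 share 490 bases on opposite strands in GENCODE 29, 4.79% of FADS1 exon bases, and no source used here gives the strand setting of the counting. FADS3 (ENSG00000221968, chromosome 11, 61873519 to 61892051, minus strand), a relative that desaturates sphingoid bases, was the least abundant of the 3, at 18.7, 13.1 and 18.7 CPM in controls 1 to 3 and 9.84, 14.2 and 16.8 CPM in knockdown 1 to 3. Control 2 lay below knockdown 2 and 3 there, and the log2 fold change was -0.31 with an SE of 0.24 (adjusted p = 0.488 by edgeR). That value was -0.12 without knockdown 1 and -0.49 without knockdown 3.

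The stearoyl-CoA desaturases were both lower. SCD (ENSG00000099194, chromosome 10, 100347124 to 100364834, plus strand), the main enzyme of oleic acid synthesis, had the most reads of the 10 genes and stood at 619, 737 and 512 CPM in controls 1 to 3 and 298, 473 and 444 CPM in knockdown 1 to 3. The groups did not overlap, knockdown 1 was the lowest library, and the log2 fold change was -0.62 with an SE of 0.21 (adjusted p = 0.147 by edgeR), and the 95% interval ran from -1.08 to -0.16. SCD5 (ENSG00000145284, chromosome 4, 82629539 to 82798857, minus strand), the other human isoform, stood at 51.5, 61.3 and 58.5 CPM in controls 1 to 3 and 38.9, 42.04 and 45.8 CPM in knockdown 1 to 3. Its 3 libraries labelled knockdown were close together and all below the lowest control (log2 fold change -0.43 with an SE of 0.15, adjusted p = 0.146 by edgeR, 95% interval -0.76 to -0.11). With no filter on low counts, SCD passed edgeR (adjusted p = 0.0385), as did FADS2 and ELOVL6, against 2.03% of all genes called lower in that setting.

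Of the elongases that extend saturated and monounsaturated chains, ELOVL6 (ENSG00000170522, chromosome 4, 110045846 to 110199199, minus strand), which lengthens palmitate to stearate, was lowest relative to the controls. It stood at 58.8, 67.7 and 59.7 CPM in controls 1 to 3 and 29.9, 31.04 and 49.3 CPM in knockdown 1 to 3. As with FADS2, knockdown 1 and 2 were low and knockdown 3 lay between them and the controls, with no overlap. The log2 fold change was -0.76 with an SE of 0.20 (adjusted p = 0.106 by edgeR), and the 95% interval ran from -1.20 to -0.31. Without knockdown 3 it was -1.03 with an edgeR adjusted p of 0.00274, while 8.3% of all genes were then called lower. It was -0.69 without control 2 (edgeR adjusted p = 0.422) and -0.80 without control 1 (edgeR adjusted p = 0.232). ELOVL1 (ENSG00000066322, chromosome 1, 43363397 to 43368074, minus strand), which makes very long saturated and monounsaturated chains for sphingolipids, stood at 47.3, 41.6 and 52.7 CPM in controls 1 to 3 and 38.4, 29.1 and 40.99 CPM in knockdown 1 to 3. Knockdown 3 lay just under control 2, the lowest control (log2 fold change -0.38 with an SE of 0.17, adjusted p = 0.241 by edgeR). ELOVL7 (ENSG00000164181, chromosome 5, 60751791 to 60844389, minus strand), an elongase of saturated and unsaturated acyl-CoAs, stood at 40.3, 49.3 and 35.4 CPM in controls 1 to 3 and 36.1, 34.2 and 35.3 CPM in knockdown 1 to 3. Control 3 was within the range of the libraries labelled knockdown, so the groups overlapped (log2 fold change -0.24 with an SE of 0.16, adjusted p = 0.413 by edgeR).

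Both elongases of the polyunsaturated pathway had small differences. ELOVL5 (ENSG00000012660, chromosome 6, 53267398 to 53349179, minus strand), which acts between FADS2 and FADS1, stood at 307, 289.7 and 257 CPM in controls 1 to 3 and 287, 294 and 250.3 CPM in knockdown 1 to 3. The groups overlapped throughout and the log2 fold change was -0.04 with an SE of 0.15 (adjusted p = 0.906 by edgeR), with a 95% interval from -0.37 to 0.29. Its sign turned positive without control 1 (0.02) or knockdown 3 (0.02). ELOVL2 (ENSG00000197977, chromosome 6, 10980759 to 11044314, minus strand), which acts after FADS1 on longer chains, stood at 64.8, 71.7 and 63.1 CPM in controls 1 to 3 and 54.5, 57.98 and 50.7 CPM in knockdown 1 to 3. Every library labelled knockdown was below every control by a small margin (log2 fold change -0.29 with an SE of 0.14, adjusted p = 0.264 by edgeR, 95% interval -0.60 to 0.02).

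**Figure D2:**
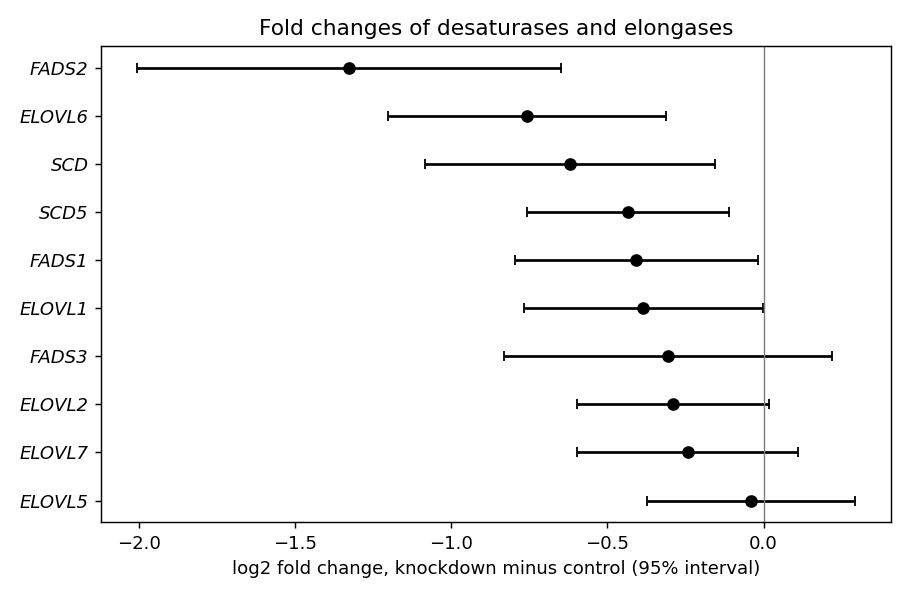
Fitted log2 fold change of each gene (horizontal axis, knockdown minus control) with its 95% interval from the edgeR fit to all 6 libraries. All 10 points lie below 0, and the intervals of FADS3, ELOVL2, ELOVL5 and ELOVL7 reach above it; intervals are not adjusted for the number of genes.

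Which libraries carry these differences varied by gene. The highest of the 6 libraries was a control for all 10 genes, namely control 2 for 7, control 3 for 2 and control 1 for 1. The lowest was knockdown 1 for 4, knockdown 2 for 4 and knockdown 3 for 2. The median log2 CPM of the 10 genes relative to the control mean was -0.42, -0.41 and -0.31 in knockdown 1, 2 and 3, where that of all tested genes lay between -0.00345 and 0.01 in every library. Leaving out control 2, the highest control for 7 genes, lowered the number at an unadjusted edgeR p under 0.05 from 6 to 3, with 5.6% of all genes lower at that p. Leaving out any other single library gave 4 to 6, with 6.32% to 16.4% of all genes lower at that p.

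Ratios between members within a library do not depend on the scaling between libraries, and 9 pairs were compared. The log2 ratio of FADS2 to FADS1 CPM was 0.09, 0.18 and -0.07 in controls 1 to 3 and -1.46, -1.06 and -0.27 in knockdown 1 to 3. The counts of both desaturases were thus nearly equal in the controls, and FADS2 was below FADS1 in all 3 libraries labelled knockdown. The mean ratio was 0.07 ± 0.13 in the controls and -0.93 ± 0.61 in the libraries labelled knockdown (SD), a difference of -0.996. FADS2 was also lower relative to FADS3 (difference -1.08) and to ELOVL5 (difference -1.36), and ELOVL5 was higher relative to ELOVL2 (difference 0.25), without overlap of the groups. For these 4 pairs the exact two-sided permutation test gave p = 0.1, the smallest that 3 against 3 libraries allow, and an adjusted p = 0.225 over the 9 pairs. None of the 9 could pass 0.05 in this design. The other 5 ratios overlapped between groups, among them SCD to SCD5 (difference -0.20, exact permutation p = 0.5) and FADS1 to FADS3 (difference -0.09, exact permutation p = 0.7).

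**Figure D3:**
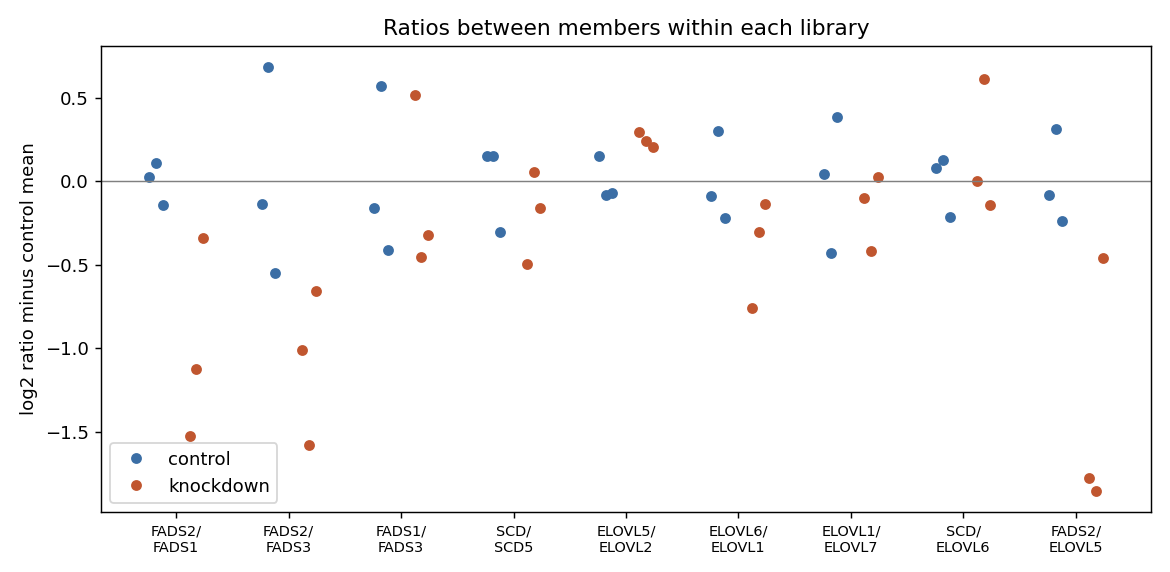
Log2 ratio of CPM between 2 members in each library, minus the mean of the 3 controls (vertical axis), for the 9 pairs on the horizontal axis; each point is 1 library. The ratios of FADS2 to FADS1, FADS3 and ELOVL5 are below all controls in the libraries labelled knockdown, with knockdown 3 nearest to them, and that of ELOVL5 to ELOVL2 is above.

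Levels of different genes were compared per kilobase of exon, as FPKM from the union of each gene's GENCODE exons. In the controls SCD stood highest at 116 ± 20.97 FPKM (mean ± SD over 3 libraries), followed by ELOVL5 at 74.6 ± 6.71 FPKM. ELOVL1 (18.8 ± 2.20) and ELOVL2 (16.6 ± 1.13) overlapped each other, and SCD5 (13.3 ± 1.17), FADS1 (13.1 ± 2.14) and FADS2 (12.9 ± 3.17) did not differ beyond their spread. ELOVL7 (9.10 ± 1.54) and ELOVL6 (8.50 ± 0.675) followed, again overlapping, and FADS3 was lowest at 2.68 ± 0.514 FPKM. In the libraries labelled knockdown SCD (75.5 ± 17.4 FPKM) and ELOVL5 (72.6 ± 6.10 FPKM) overlapped, and FADS2 (5.14 ± 2.56 FPKM) stood beside ELOVL6 (5.03 ± 1.49 FPKM). Between them lay ELOVL1 (14.4 ± 2.50), ELOVL2 (13.6 ± 0.911), FADS1 (9.87 ± 1.57), SCD5 (9.85 ± 0.810) and ELOVL7 (7.69 ± 0.210), and FADS3 was again lowest at 2.17 ± 0.562 FPKM. The order depends on the length used: with the longest transcript in place of the union, FADS1 and FADS2 rank higher in the controls, with FADS1 at 29.6 FPKM, and ELOVL5 (89.9 FPKM) stands above SCD (75.5 FPKM) in the libraries labelled knockdown. The fold changes do not depend on the length.

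**Figure D4:**
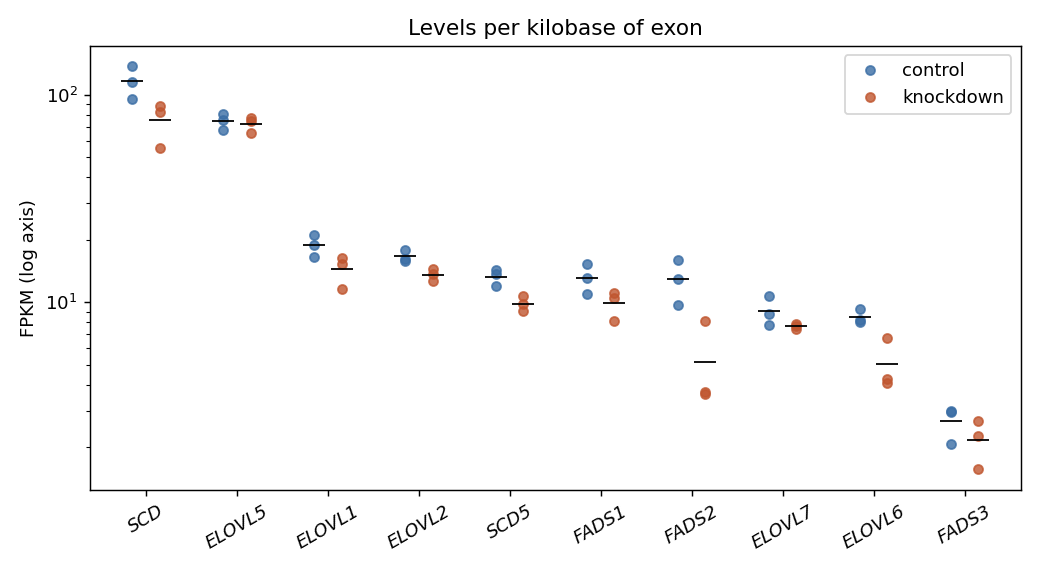
FPKM of each gene per kilobase of its exon union (logarithmic vertical axis), with genes ordered by control mean; points are libraries and bars are means over 3. SCD and ELOVL5 lie above the other 8 genes in every library, and FADS3 is the lowest gene.

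Promoter sequences of SCD, SCD5 and ELOVL6, which are among the 6 genes lower in every library labelled knockdown, are shown beside that of ELOVL5, which was nearly level. Those of FADS2, ELOVL1 and ELOVL2, the others of the 6, are not shown. Each runs 5′ to 3′ from 250 bases before to 50 bases after a RefSeq start site (GRCh38.p14), and capitals mark CCAAT or its reverse complement, the NF-Y box, and CACGTG, the E-box. SCD lies at chr10:100346983-100347282, plus strand; SCD5 at chr4:82798747-82799046, minus strand; ELOVL6 at chr4:110198566-110198865, minus strand; and ELOVL5 at chr6:53348901-53349200, minus strand.
SCD: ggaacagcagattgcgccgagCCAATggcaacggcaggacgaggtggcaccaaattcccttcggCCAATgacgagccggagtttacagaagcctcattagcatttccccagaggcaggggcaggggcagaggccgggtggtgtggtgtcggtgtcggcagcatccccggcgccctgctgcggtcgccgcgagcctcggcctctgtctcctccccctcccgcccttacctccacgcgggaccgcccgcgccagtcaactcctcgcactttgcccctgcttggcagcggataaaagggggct
SCD5: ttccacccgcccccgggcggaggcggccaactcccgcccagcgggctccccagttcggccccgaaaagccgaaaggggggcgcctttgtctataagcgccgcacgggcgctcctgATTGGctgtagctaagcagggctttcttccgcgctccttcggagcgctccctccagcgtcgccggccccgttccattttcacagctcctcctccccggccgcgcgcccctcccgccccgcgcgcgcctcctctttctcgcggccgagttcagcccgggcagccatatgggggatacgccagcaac
ELOVL6: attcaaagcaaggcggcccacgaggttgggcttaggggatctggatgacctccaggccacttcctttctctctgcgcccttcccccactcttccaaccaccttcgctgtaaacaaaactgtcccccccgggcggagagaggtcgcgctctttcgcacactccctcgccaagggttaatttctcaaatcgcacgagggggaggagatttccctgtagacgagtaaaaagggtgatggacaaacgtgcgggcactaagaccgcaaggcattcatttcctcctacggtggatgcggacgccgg
ELOVL5: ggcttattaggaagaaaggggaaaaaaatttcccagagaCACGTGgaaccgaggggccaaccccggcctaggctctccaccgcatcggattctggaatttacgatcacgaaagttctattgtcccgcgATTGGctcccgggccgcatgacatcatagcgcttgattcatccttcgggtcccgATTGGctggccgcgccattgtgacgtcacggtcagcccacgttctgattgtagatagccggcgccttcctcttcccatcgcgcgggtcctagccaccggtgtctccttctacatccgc

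The RefSeq table held 11 promoters of 300 bases for the 10 genes, 2 of them for FADS2. The FADS2 windows, 61815953 to 61816252 and 61816154 to 61816453, lie downstream of the gene's first GENCODE base at 61792980. Neither that start nor a GENCODE start of FADS2 further downstream than the windows is covered by the counts below. The NF-Y box was found on either strand in 6 of the 11, against 34.6% of 35116 promoters of the same length. SCD and ELOVL5 each had 2, SCD5 had 1 and ELOVL6 had none. The GC box GGGCGG was found in 9 of the 11 (45% of all promoters) and the E-box in 1, that of ELOVL5 (7.26% of all). The core letters TCACNCCAC of the sterol regulatory element (1.13% of all promoters) and the liver X receptor repeat, AGGTCA followed after 4 bases by AGGTCA (0.0199%), were found in none of the 11 windows. Only exact letters within windows of 300 bases were searched, and how often targets carry them there was not measured. Their absence therefore does not show whether these genes are targets. Every motif was searched on both strands.

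Other genes of the pathway were read from fixed lists, with counts at an unadjusted edgeR p under 0.05 beside the 10.6% of all genes lower and 9.93% higher. No gene of these lists passed the adjusted test of edgeR, and DESeq2 called the 6 for which its adjusted p under 0.05 is given. Among the enzymes that complete the elongation cycle, the counts were 0 lower and 0 higher of 6 (median log2 fold change -0.15). Every library labelled knockdown lay below every control for 2 of the 6, HSD17B12 and HACD1, as in 14.3% of all genes. For 1, HACD3, every one lay above, as in 12.5% of all genes. HSD17B12, the ketoacyl reductase, stood at 139 ± 5.40 and 127 ± 11.3 CPM and HACD3, a dehydratase, at 479 ± 27.1 and 561 ± 76.7 CPM. Outside the 10 genes the counts were 0 lower and 1 higher of 3 (median 0.62). ELOVL3 and FADS6 did not pass the filter and ELOVL4 was level at 70.3 ± 2.25 and 69.9 ± 11.4 CPM, a gene named after its values were seen. DEGS2, a relative of DEGS1 named likewise, was low at 0.799 ± 0.264 and 1.27 ± 0.454 CPM. DEGS1, which desaturates dihydroceramide, went the other way, at 224, 204 and 214 CPM in controls 1 to 3 and 395, 357 and 234 CPM in knockdown 1 to 3 (log2 fold change 0.62 with an SE of 0.20, adjusted p = 0.133 by edgeR, DESeq2 adjusted p = 0.0459). All 3 libraries labelled knockdown were above the controls for DEGS1, knockdown 3 by the least. Without knockdown 3 its adjusted p by edgeR was 0.00794 (log2 fold change 0.81), when 1232 of 19062 genes were called higher. Its adjusted p by edgeR was 0.451 without control 2 (log2 fold change 0.58) and 0.289 without control 1 (log2 fold change 0.65).

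Desaturases draw electrons from NADH or NADPH through cytochrome b5 and its reductases, and the counts for these genes were 3 lower and 1 higher of 6 (median -0.22). Without control 1 or control 2 the lower count was 1, and 0 were higher without either of these or without knockdown 1 or 2. CYB5B, the outer mitochondrial membrane cytochrome b5, stood at 174, 178 and 153 CPM in controls 1 to 3 and 137, 111 and 117 CPM in knockdown 1 to 3, without overlap (log2 fold change -0.47 with an SE of 0.15, adjusted p = 0.134 by edgeR). CYB5A, the microsomal form that serves desaturation, averaged 40.8 ± 4.55 and 28.6 ± 7.86 CPM and its groups overlapped (log2 fold change -0.51 with an SE of 0.21, adjusted p = 0.201 by edgeR). The reductase CYB5R1 averaged 37.9 ± 2.06 and 29.5 ± 1.05 CPM (log2 fold change -0.36), and CYB5R3, the main reductase, named after its values were seen, 138 ± 11.4 and 131 ± 22.2 CPM (log2 fold change -0.07). CYB5R2, the 1 higher, had few reads and stood at 1.08, 0.314 and 1.71 CPM in controls 1 to 3 and 2.66, 5.102 and 0.844 CPM in knockdown 1 to 3. Its groups overlapped, and its log2 fold change of 1.48 ranged from 0.75 to 2.02 when 1 library was left out.

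In palmitate synthesis, which supplies ELOVL6, the counts were 3 lower and 0 higher of 8 (median -0.18), with 5 lower without knockdown 3 and 1 higher without knockdown 1 or knockdown 2. The 3 were the citrate carrier SLC25A1 (log2 fold change -1.03, DESeq2 adjusted p = 0.0105), ATP citrate lyase ACLY (-0.82, DESeq2 adjusted p = 0.0228) and acetyl-CoA synthetase ACSS2 (-0.77, DESeq2 adjusted p = 0.0307). SLC25A1 stood at 103, 118 and 101 CPM in controls 1 to 3 and 39.9, 35.5 and 82.4 CPM in knockdown 1 to 3. Its order over the libraries was like that of FADS2, with knockdown 1 and 2 low. FASN, fatty acid synthase itself, named after its values were seen, stood at 273, 234 and 197 CPM in controls 1 to 3 and 161, 172 and 341 CPM in knockdown 1 to 3. Its groups overlapped, since knockdown 3 was the highest library, and the log2 fold change was -0.06 with an SE of 0.27 (adjusted p = 0.923 by edgeR).

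Among regulators, the counts were 3 lower and 0 higher of 21 (median -0.14), and the lower count was 0 without control 2, 1 without knockdown 1 and 6 without knockdown 3. SREBF2, which encodes the sterol regulatory element-binding protein of cholesterol genes, stood at 97.2, 128 and 105 CPM in controls 1 to 3 and 64.01, 89.1 and 82.3 CPM in knockdown 1 to 3, without overlap (log2 fold change -0.49 with an SE of 0.17, adjusted p = 0.158 by edgeR). INSIG1, which holds these proteins in the endoplasmic reticulum and is itself a target, averaged 413 ± 117 and 246 ± 101 CPM (log2 fold change -0.75 with an SE of 0.29, adjusted p = 0.187 by edgeR), and MBTPS1, the protease that first cleaves them, 214 ± 18.9 and 156 ± 19.9 CPM (log2 fold change -0.46 with an SE of 0.16, adjusted p = 0.146 by edgeR). The groups overlapped for INSIG1, where knockdown 3 (362 CPM) lay above control 3 (282 CPM), and did not for MBTPS1. SREBF1, the form tied to fatty acid genes and named after its values were seen, stood at 34.6, 26.6 and 26.03 CPM in controls 1 to 3 and 16.6, 28.9 and 35.2 CPM in knockdown 1 to 3. Knockdown 1 was the lowest library and knockdown 3 the highest, so the groups overlapped (log2 fold change -0.11 with an SE of 0.25, adjusted p = 0.835 by edgeR).

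The counts were 1 lower and 0 higher of 11 among acyl-CoA synthetases, with SLC27A3 at 9.67 ± 1.37 and 5.95 ± 1.59 CPM, and 1 lower and 2 higher of 21 among acyltransferases that place acyl chains into lipids. The lower count of synthetases was 0 without control 1 or control 2 and 2 without knockdown 2. That of acyltransferases was 0 without control 1, control 3 or knockdown 1, 2 without knockdown 2 and 5 without knockdown 3. GPAM, the first acyltransferase of glycerolipid synthesis (log2 fold change 0.52), and LPCAT1 (0.38, with overlapping groups) were higher, and MBOAT7, which puts arachidonate into phosphatidylinositol (-0.43), was lower. In the peroxisomal shortening that finishes docosahexaenoic acid, the counts were 5 lower and 0 higher of 9 (median -0.38). Without control 2, knockdown 1 or knockdown 2 the lower count was 3, with 1 higher without knockdown 2. Without knockdown 3 the lower count was 6. The 4 genes of smallest p were the thioesterase ACOT8 (17.6 ± 0.795 and 10.3 ± 1.45 CPM, DESeq2 adjusted p = 0.0104), the import receptor PEX5 (66.2 ± 25.7 and 34.8 ± 5.91 CPM, DESeq2 adjusted p = 0.0242), the thiolase ACAA1 (26.5 ± 1.40 and 17.5 ± 4.34 CPM) and the bifunctional protein HSD17B4 (200.2 ± 24.9 and 135 ± 47.8 CPM). The groups overlapped for PEX5, where control 3 (36.6 CPM) lay within the range of knockdown 1 to 3, and for HSD17B4. Without knockdown 3, 3 of these 9 genes passed edgeR's adjusted test as lower, where 8.3% of all genes were. So did 3 of the 8 of palmitate synthesis. The lower count in that run was 1 of 11 synthetases, 1 of 21 regulators, 2 of 21 acyltransferases and 1 of 8 neighbours of the FADS genes. It was 0 of 6 elongation cycle enzymes, 0 of 6 electron donors and 0 of the 3 other elongases and desaturases. The last 2 lists, the acyltransferases and the neighbours each had 1 higher, where 1232 of 19062 genes were.

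**Figure D5:**
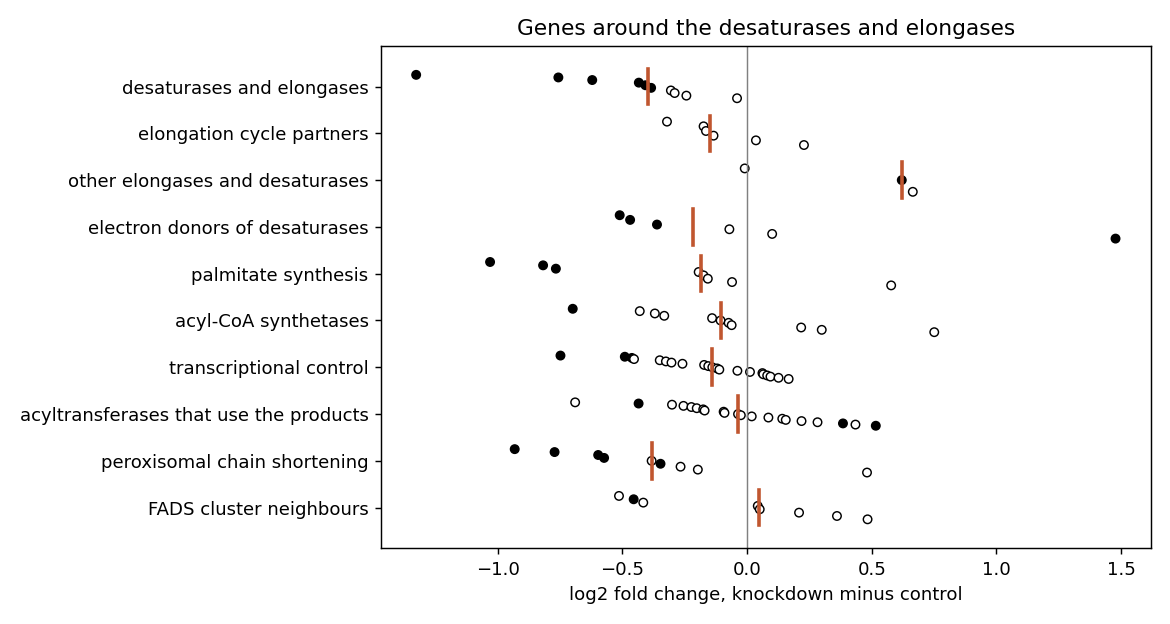
Log2 fold change (horizontal axis, knockdown minus control) of each tested gene in the desaturase and elongase group and in 9 lists around it; filled points have an unadjusted edgeR p under 0.05, and vertical bars are list medians. The median of the 10 desaturases and elongases is -0.40 and that of peroxisomal chain shortening -0.38, that of the 3 other elongases and desaturases 0.62, while the remaining medians lie from -0.22 to 0.05; CYB5R2 is the point at 1.48.

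FADS1, FADS2 and FADS3 lie together on chromosome 11, and their annotated neighbours there were read beside them. Of 8 neighbours 1 was lower at an unadjusted edgeR p under 0.05 and 0 higher (median 0.05), and the lower count was 0 without control 1 or control 2 and 2 without knockdown 3. This was TMEM258, a subunit of the oligosaccharyltransferase complex, at 24.1 ± 0.868 and 17.6 ± 2.19 CPM (log2 fold change -0.45 with an SE of 0.17, adjusted p = 0.167 by edgeR). FEN1, a flap endonuclease whose exons share 49 bases with FADS2 on the same strand, averaged 112 ± 8.16 and 143 ± 38.8 CPM (log2 fold change 0.36), and the ferritin heavy chain FTH1 163 ± 32.2 and 168 ± 6.41 CPM. The log2 fold changes of the others were 0.21 for DAGLA, 0.48 for MYRF, -0.42 for RAB3IL1, 0.05 for BEST1 and -0.51 for INCENP. The sign of FTH1 turned without control 2, and that of BEST1 with voom, with the replicate block and without control 2 or knockdown 2. Without knockdown 3, INCENP (-1.13) passed edgeR as lower and FEN1 (0.55) as higher.

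Of 10454 other genes with a mean of at least 10 CPM, those whose log2 CPM over the 6 libraries was most like that of FADS2 were NDUFV2 (Pearson r 0.999), a complex I subunit, LMO7 (0.997), CBR4 (0.997), a ketoacyl reductase of mitochondrial fatty acid synthesis, and IL10RB (0.997). Their log2 fold changes were -0.43, -0.70, -0.62 and -0.36, smaller in size than the -1.33 of FADS2. For SCD they were PHLPP1 (0.998), GPC4 (0.993), TMTC4 (0.990) and C12orf66 (0.987). These values describe 6 libraries that share depth and scaling between genes, and the highest of so many candidates is high by selection.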

How the data were processed

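Raw read counts by Ensembl identifier, as deposited by the authors, formed a single table whose 6 columns matched the sample titles. The submitters' processing notes name HTSeq, TopHat2 2.0.13, bcl2fastq 2.18 and hg38. Annotation, strand setting and read filters were not given in the sources read. Libraries were stranded and ribosomal RNA was removed, per the labels' protocols. Library sizes and tests left out the 5 special HTSeq rows. Symbols, coordinates and exon lengths came from GENCODE 29 (GRCh38), which matched 57055 identifiers.

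Knockdown was tested against control with edgeR 4.0.16 in R 4.3.3 (TMM, filterByExpr, quasi-likelihood F test, two-sided, Benjamini-Hochberg over 18267 genes). The standard error is the absolute log2 fold change, fitted without a prior count, over the root of F. Log2 CPM used a prior count of 2. The script was first tested on simulated data. There edgeR at an adjusted p under 0.05 called 62 of 100 genes given a log2 fold change of 1 in size. It called 100 of 100 given a log2 fold change of 2 in size, and 16 unchanged genes. Replicates differed beyond sampling noise (chi-square per degree of freedom 10.03 to 63.7).

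The alternatives were DESeq2-type and upper-quartile factors, DESeq2 1.42.0, limma 3.58.1 voom, the replicate block, leaving out each library, a floor of 1 CPM in 3 libraries, no filter on low counts and the longest transcript as gene length. For ratios between genes they were a raw count ratio and same-numbered differences. DESeq2 gave no adjusted p for 1774 genes. The members, lists and named-gene rule were chosen with earlier results of these data known. The rule names the 10 members and MOCS2, up to 4 genes per list at an unadjusted p under 0.05 or else the 2 most abundant, all tested neighbours of the FADS genes, and the 4 genes most correlated with FADS2 and with SCD.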

Additional observations from a re-analysis of the deposited data

How the results depend on the processing

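The log2 fold changes of FADS1, FADS2, FADS3, SCD, SCD5, ELOVL1, ELOVL2, ELOVL6 and ELOVL7 stayed negative under all 13 alternatives, from -1.82 to -1.13 for FADS2. That of ELOVL5 was 0.015 without control 1 and 0.022 without knockdown 3. Over all genes, 0 were called higher and 0 lower in the fit reported, where DESeq2 called 559 and 586, no filter 694 and 880 (with the median log2 fold change of all genes at 0.12), and the replicate block 6 and 13. Leaving out 1 library gave 0 to 1232 higher and 0 to 1583 lower, the largest without knockdown 3. Of the 10 members, DESeq2 called 2 lower, no filter 3, and leaving out 1 library 0 to 2, and 0 were called higher under any alternative. At an unadjusted edgeR p under 0.05 leaving out 1 library gave 3 to 6 members lower, where 5.6% to 16.4% of all genes were. Members with groups apart numbered 6 to 9 in those runs. Groups of 3 and 2 libraries separate more easily than 3 and 3, and the share over all genes was not computed there. The cause of these shifts was not tested. With the replicate block no member passed the adjusted test, as without it, and 5 members in place of 6 were lower at an unadjusted p under 0.05. Same-numbered libraries did not deviate together (correlations of deviations 0.11, -0.17 and -0.12), so numbers were not taken as pairs, and same-numbered ratio differences cannot go below p = 0.25. The log2 ratio difference of FADS1 to FADS3 ranged from -0.388 to 0.199, ELOVL1 to ELOVL7 from -0.378 to 0.0292 and SCD to ELOVL6 from -0.0693 to 0.309 over libraries left out, each changing sign, and the other 6 kept theirs. MOCS2 turned positive with upper-quartile factors (0.0095) and without control 2 (0.024), control 3 (0.0046), knockdown 2 (0.027) or knockdown 3 (0.019). Over libraries left out it ranged from -0.094 to 0.027, BEST1 from -0.43 to 0.38 and FTH1 from -0.11 to 0.17. BEST1 turned negative with voom (-0.069), the block (-0.063) and without control 2 (-0.099) or knockdown 2 (-0.43), and FTH1 without control 2 (-0.11). With 174 to 416 reads, FADS3 was the member least deeply sampled.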
